A study of Danio rerio with 228 samples.

Results

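The 3 glucuronidation genes described here are ugdh, ugt2a4 and ugt2b5, the members of a set chosen by gene symbol from the probes of a zebrafish expression panel. The set was chosen with earlier results of these data known. Each has 1 probe (UGDH_86111, UGT2A4_85423 and UGT2B5_84811), and the panel holds 3183 probes for 3112 genes. Glucuronidation attaches glucuronic acid to lipophilic compounds so that they can leave the body in bile or urine. Ugdh, UDP-glucose dehydrogenase, makes the activated sugar, UDP-glucuronic acid, from UDP-glucose, and the same sugar feeds the synthesis of glycosaminoglycans. The products of ugt2a4 and ugt2b5 belong to the UDP-glycosyltransferases (UGTs), membrane enzymes of the endoplasmic reticulum that transfer the sugar. Liver and intestine are the best known sites of these enzymes, whose substrates include bilirubin, steroids, thyroid hormones and drugs.

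RNA was measured by TempO-Seq, a targeted assay in which neighbouring detector probes on an RNA are joined and then counted by sequencing. Zebrafish embryos were exposed in 0.1% DMSO from 4 to 120 h post fertilisation, and whole embryos were pooled by 10 for each library. The 9 chemicals were the perfluorinated carboxylic acids PFBA, PFHxA, PFOA, PFNA and PFDA and the perfluorinated sulfonic acids PFBS, PFHxS, PFOS and PFDS, both in order of rising chain length. Each was given at 5 concentrations, which made 45 exposed groups. The control groups received 0.1% DMSO without a test chemical. PFBA, PFBS, PFHxA and PFHxS were compared with 6 DMSO pools of Ottawa fish (control_ottawa), and their own pools were Ottawa fish too. PFOA, PFOS, PFDS and PFDA pools mixed fish of Ottawa and Montreal origin, as did their 4 DMSO pools (control_mixed). The labels name no control group for PFDA, and this one was assumed. PFNA pools were Ottawa fish of a separate processing batch, with 16 DMSO pools (control_pfna). By sample name, 4 of these are PFNA_control and 12 are EM, ENV or EP controls. All other embryo pools were of batch A. PFOS groups held 5 pools, PFOA groups 4 at 4 and 12 µM and 5 above, and the other exposed groups 4. The labels do not say that pools came from separate spawnings, so p-values measure the spread between these pools only, which may be technical. In whole embryos, a change in the number of cells that express a gene cannot be told apart from a change in RNA per cell.

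Embryo libraries held 2254364 to 4466565 counts. Across the embryo pools, ugdh had 221 to 2184 counts, ugt2b5 36 to 450 and ugt2a4 13 to 388, so ugt2a4 carried the largest counting error. The 4 water libraries held 20 to 37 counts of ugdh, 0 to 7 of ugt2a4 and 5 to 10 of ugt2b5. Levels are CPM (counts scaled to a common library size) adjusted with TMM, a scaling that removes differences in composition between libraries. They are given as mean ± SD over pools, and because probes differ in efficiency they are not compared between genes. Changes are log2 differences from the assigned DMSO group with the standard error (SE) of the fit. A change was called when edgeR's quasi-likelihood test gave a p under 0.05 after Benjamini-Hochberg adjustment over all probes of that contrast. Where pools of groups are said to lie apart or not to overlap, the share of all probes that separate the same groups was not counted.

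The DMSO groups themselves differed. The ugdh level was 186 ± 27.2 CPM in control_mixed (n = 4), 129.5 ± 7.49 in control_ottawa (n = 6) and 114.98 ± 27.5 in control_pfna (n = 16). The ugt2a4 level was 31.9 ± 20.8, 15.6 ± 9.95 and 19.5 ± 5.45 CPM in the same order, and the ugt2b5 level was 32.3 ± 10.3, 38.8 ± 12.3 and 32.4 ± 10.7 CPM. Of the 9 member differences between DMSO groups, 4 were called, in contrasts where 7.91% (control_mixed against control_ottawa), 20.5% (control_pfna against control_ottawa) and 32.7% (control_pfna against control_mixed) of probes were called. Ugdh was higher in control_mixed than in control_ottawa by 0.50 ± 0.14 log2 (edgeR adjusted p = 0.0108) and lower in control_pfna than in control_mixed (−0.68 ± 0.12, adjusted p = 6.14e-07). Ugt2a4 differed in the same directions (1.02 ± 0.32, adjusted p = 0.0278, and −0.70 ± 0.27, adjusted p = 0.0324), with 1 pool of control_mixed at 62.7 CPM and the other 3 between 17.1 and 24.9. Without that pool (replicate 4) these differences were 0.44 (adjusted p = 0.668) and −0.12 (adjusted p = 0.819), and the ugdh difference from control_ottawa was 0.45 (adjusted p = 0.0922). Fitted on DMSO pools alone, ugdh (0.52, adjusted p = 0.119) and ugt2a4 (1.03, adjusted p = 0.0996) were not called between control_mixed and control_ottawa, nor was ugt2a4 between control_pfna and control_mixed (−0.71, adjusted p = 0.0703; −0.64, adjusted p = 0.0652 with total-count scaling). The ugdh difference of control_mixed from control_ottawa was also not called without control_mixed replicate 2 (0.45, adjusted p = 0.0545), and that of ugt2a4 was not without control_ottawa replicate 1, 3, 4 or 6 (0.89 to 0.97, adjusted p = 0.0640 to 0.0821). Fish origin, and for PFNA the processing batch, cannot be told apart from the chemical across these sets, so each chemical is set against its assigned controls.

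With 15 changes of the 3 genes in each chemical, 29 were called over all 9 chemicals, 28 of them higher than DMSO and 1 lower. The share of all probes called in either direction ran from 0%, as at 8 µM PFBA, to 33.1% at 450 µM PFNA. Shares are given by chemical below. The called rises fell in PFOA, PFDA, PFNA and PFHxA, all carboxylic acids, and in 1 group of the sulfonic acid PFBS. The single fall was ugdh at 40 µM PFOS. All of these calls kept their direction under the alternatives run for them, and 22 of 29 were called without each library in turn.

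**Figure D1:**
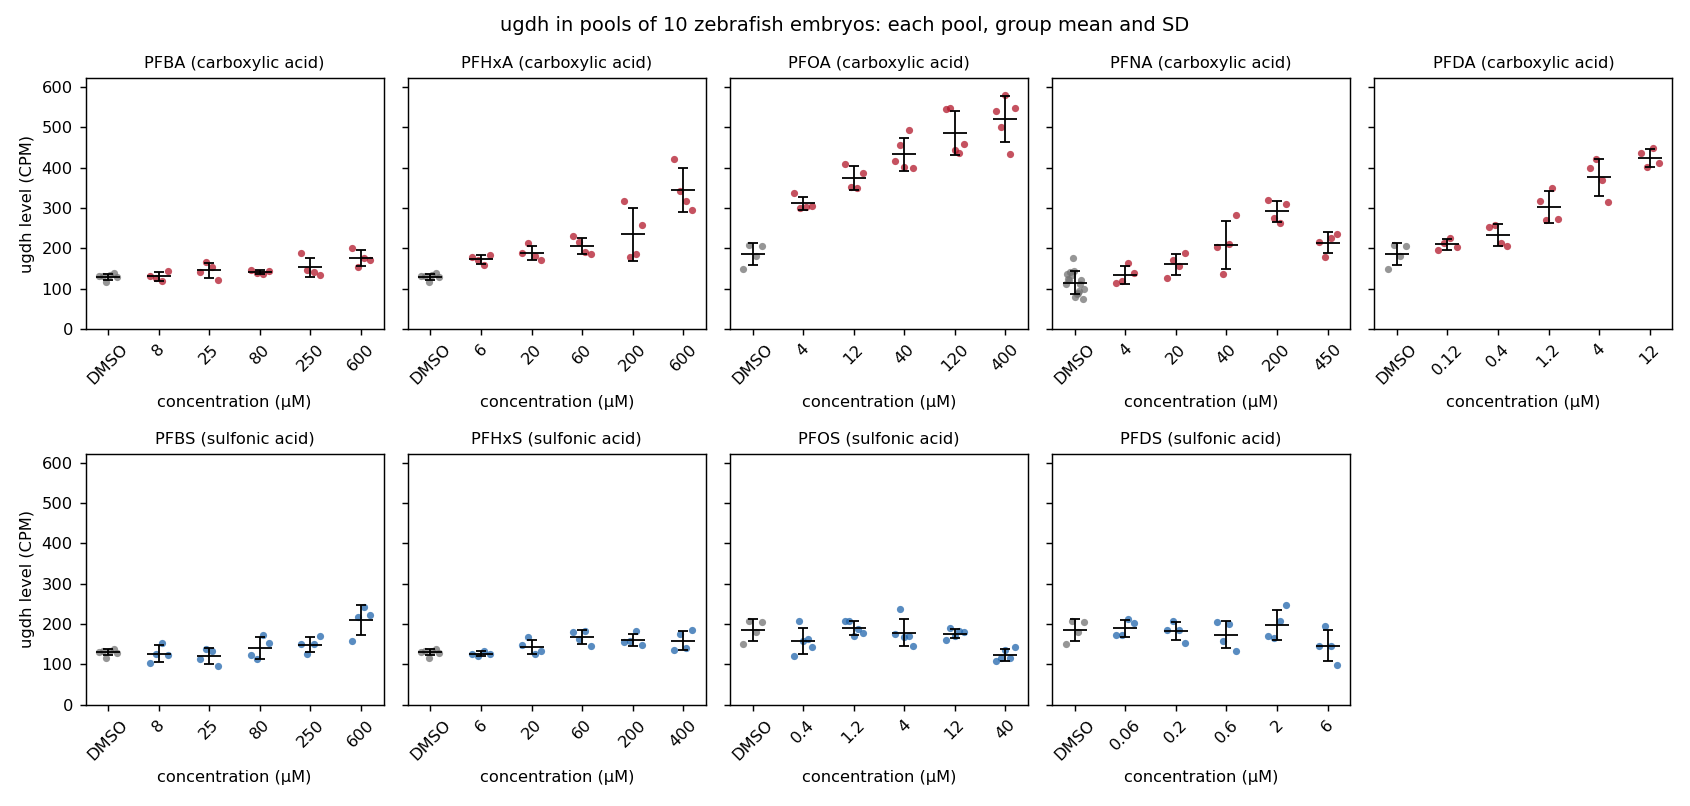
Ugdh level in CPM (vertical axis) by concentration in µM, with the assigned DMSO group at the left of each panel. Points are pools, bars are mean and SD; carboxylic acids are in the upper row and sulfonic acids in the lower. The 5 PFOA groups average 311 to 521 CPM against 186 in DMSO, and the PFOS groups 123.8 to 191.

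PFOA raised ugdh at every concentration. The 4 control pools stood at 149.4, 208, 181.04 and 205 CPM, and the 4 pools at 4 µM stood at 337, 300.5, 304 and 304 CPM. At 400 µM the 5 pools stood at 540, 502, 581, 433 and 548 CPM. All 23 PFOA pools lay above all DMSO pools. The changes were 0.75 ± 0.12, 1.02 ± 0.12, 1.23 ± 0.12, 1.39 ± 0.12 and 1.49 ± 0.12 log2 at 4, 12, 40, 120 and 400 µM (edgeR adjusted p = 0.000969 at 4 µM and 5.27e-10 at 400 µM, where the rise was 2.82-fold). The share of all probes called higher was 0.696, 0.44, 0.806, 1.28 and 1.28% at these concentrations.

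Both transferase genes also rose with PFOA, from 40 µM upward. Ugt2a4 stood at 77.9, 89.8, 103.2, 70.1 and 97.4 CPM at 400 µM, above all 4 control pools, of which the highest held 62.7 CPM. Its changes were 0.96 ± 0.25 at 40 µM (adjusted p = 0.0394), 1.39 ± 0.25 at 120 µM and 1.46 ± 0.25 at 400 µM (adjusted p = 0.000548), and it was not called at 4 µM (0.16 ± 0.26) or 12 µM (0.80 ± 0.26, adjusted p = 0.159). Leaving out control_mixed replicate 4, the high control pool, gave 2.04 at 400 µM. The call at 40 µM was lost without any 1 of control_mixed replicates 1, 2 and 3 or PFOA 40 µM replicates 1, 2, 3 and 4 (0.74 to 0.95, adjusted p = 0.0677 to 0.263), and the change was 1.53 without control_mixed replicate 4.

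Ugt2b5 stood at 69.03, 72.03, 90.2, 83.03 and 75.6 CPM at 400 µM PFOA against 27.5, 28.7, 47.6 and 25.3 CPM in DMSO, so the groups did not overlap. It rose by 0.91 ± 0.19 at 40 µM, 1.12 ± 0.19 at 120 µM and 1.28 ± 0.19 at 400 µM (2.42-fold, edgeR adjusted p = 0.00013). It was not called at 4 µM (0.35 ± 0.20) or 12 µM (0.67 ± 0.20, adjusted p = 0.11). The call at 40 µM was lost without control_mixed replicate 1 (0.83, adjusted p = 0.0530) or replicate 2 (0.86, adjusted p = 0.0535). In all, 11 of 15 PFOA changes were called. With RNA extraction batch as a term the 3 changes at 400 µM were 1.67 for ugdh, 1.90 for ugt2a4 and 1.33 for ugt2b5, all called.

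**Figure D2:**
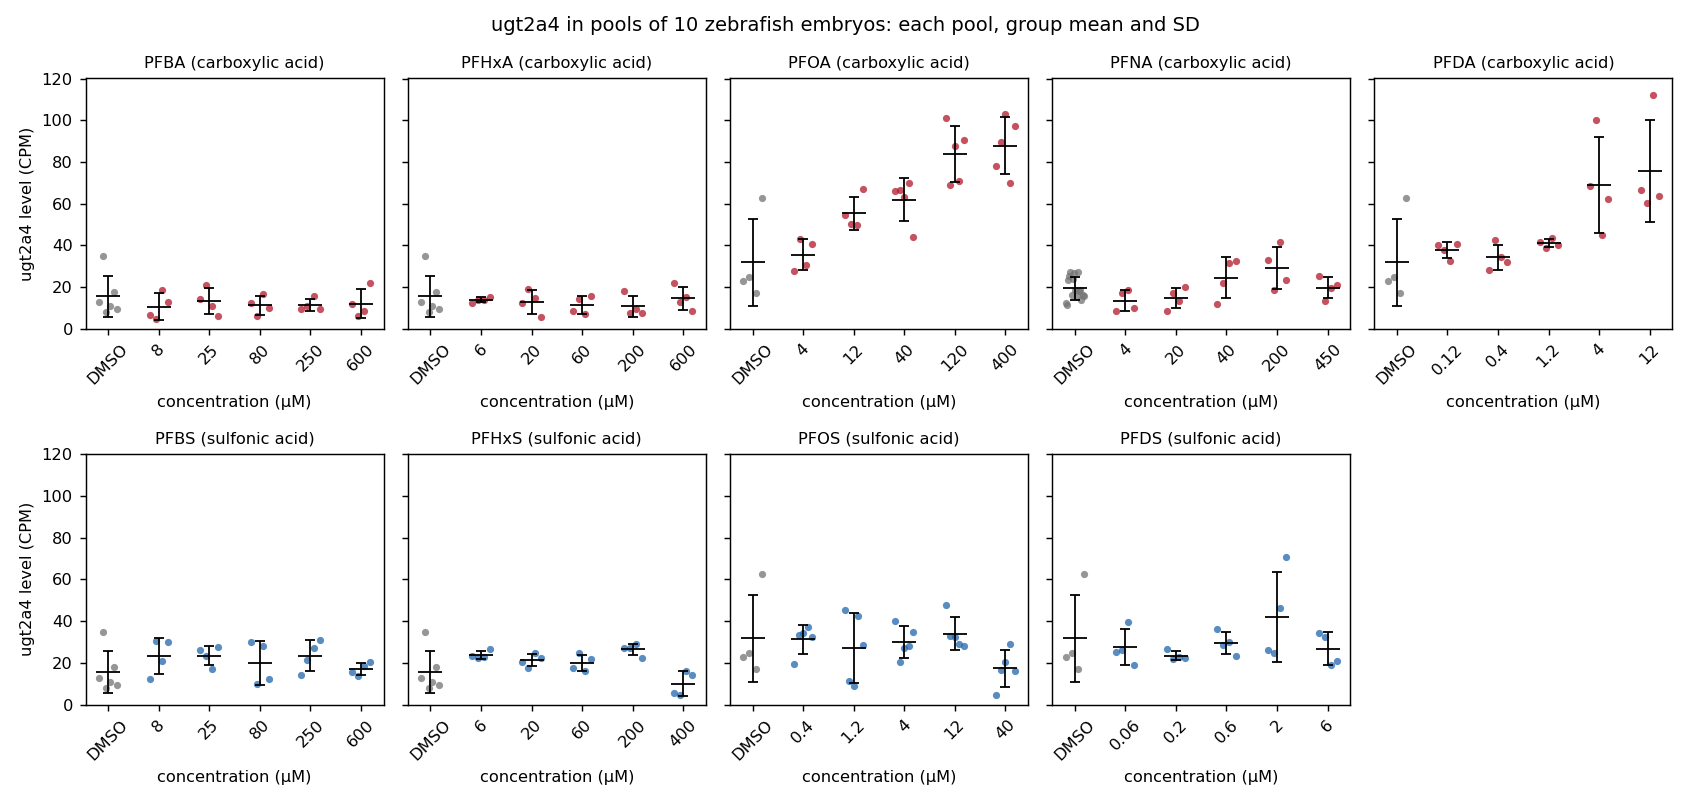
Ugt2a4 level in CPM (vertical axis) by concentration in µM, laid out as for ugdh, with pools as points and bars for mean and SD. PFOA at 400 µM averages 87.7 CPM and PFDA at 12 µM 75.6, with 1 PFDA pool at 112.2; the PFHxA groups average 10.8 to 14.6 CPM, and their DMSO pools 15.6, with 1 DMSO pool at 34.7 and the others at 8.06 to 17.9.

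PFDA, the longest carboxylic acid, was given at 0.12 to 12 µM. It raised ugdh from 1.2 µM, ugt2b5 from 4 µM and ugt2a4 at 12 µM. PFOA was not given below 4 µM. Ugdh stood at 317, 270.5, 350.4 and 272 CPM at 1.2 µM and at 436, 402, 449 and 412 CPM at 12 µM, in both cases above all 4 DMSO pools. It rose by 0.71 ± 0.12 at 1.2 µM (edgeR adjusted p = 0.015), 1.02 ± 0.12 at 4 µM (adjusted p = 3.4e-05) and 1.19 ± 0.12 at 12 µM (2.29-fold, adjusted p = 1.64e-06). It was not called at 0.12 µM (0.18 ± 0.12) or 0.4 µM (0.33 ± 0.12, adjusted p = 0.785). The share of all probes called higher was 0.0364, 0.0364, 0.109, 0.255 and 0.401% from 0.12 to 12 µM. At 12 µM the 3 genes were among 11 probes called higher of 2744 tested. They were chosen with earlier results of these data known, so this count is a description only.

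Ugt2b5 stood at 93.7, 78.8, 94.5 and 71.5 CPM at 12 µM PFDA, above the highest control pool at 47.6 CPM. Its change was 1.27 ± 0.20 at 4 µM (adjusted p = 0.000801) and 1.39 ± 0.20 at 12 µM (2.62-fold, adjusted p = 0.000182), and 0.68 ± 0.20 at 1.2 µM, which was not called (adjusted p = 0.321). Ugt2a4 stood at 66.4, 60.4, 112.2 and 63.5 CPM at 12 µM, where it was called at 1.24 ± 0.29 (adjusted p = 0.0409), and it was not called at 4 µM (1.103 ± 0.29, adjusted p = 0.118). In all, 6 of 15 PFDA changes were called.

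Some PFDA calls rested on single libraries or on the model. The call of ugt2a4 at 12 µM was lost without any 1 of control_mixed replicates 1, 2 and 3 or of the 4 exposed pools (0.98 to 1.34, adjusted p = 0.0560 to 0.258), the lowest change being without replicate 3 at 112.2 CPM. That of ugdh at 1.2 µM was lost without control_mixed replicate 1, or without PFDA replicate 1 or 3 (0.61 to 0.69, adjusted p = 0.0584 to 0.145). With extraction batch as a term, ugdh at 1.2 µM (0.61, adjusted p = 0.870), ugt2b5 at 4 µM (1.02, adjusted p = 0.0575) and ugt2a4 at 12 µM (0.93, adjusted p = 0.500) were no longer called, while ugdh at 12 µM (1.099, adjusted p = 0.00112) and ugt2b5 at 12 µM (1.15, adjusted p = 0.0113) were.

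PFNA raised ugdh and ugt2b5 from 40 µM. Of its 16 DMSO pools, 4 shared an RNA extraction batch (14) with the PFNA pools and 12 came from batches 11, 12 and 13, which held no PFNA pool. By sample name only the 4 of batch 14 are PFNA_control. The other 12 are named EM_control (batch 11), ENV_control (batch 12) and EP_control (batch 13), so most of this control group carries other names. Ugdh ran from 79.8 to 95.1 CPM in batch 13 and from 132.7 to 176.7 CPM in batch 12. The 16 pools ran from 74.1 to 176.7 CPM for ugdh, with 8 of the 16 above 111.8 CPM. The 4 pools at 200 µM stood at 319, 276, 262 and 309 CPM, above every control pool, and at 450 µM they stood at 215, 177.4, 226 and 236 CPM. The ugdh changes were 0.84 ± 0.16 at 40 µM, 1.34 ± 0.15 at 200 µM (2.52-fold, edgeR adjusted p = 4.77e-08) and 0.88 ± 0.16 at 450 µM (adjusted p = 2.24e-05). Against the 4 DMSO pools of batch 14 alone they were 1.02, 1.51 and 1.05, all called. Many other probes were called, with 0.211, 1.09, 2.84, 5.65 and 16.2% higher from 4 to 450 µM, so the calls at 450 µM stand against a broad response.

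Ugt2b5 had its highest group mean of the series at 200 µM PFNA. The pools held 113.03, 71.1, 103.9 and 120.2 CPM, and control pools ran from 10.9 to 48.6 CPM with a median of 33.2. The change was 0.85 ± 0.22 at 40 µM (adjusted p = 0.0192), 1.65 ± 0.21 at 200 µM (3.14-fold, adjusted p = 4.55e-07) and 1.29 ± 0.21 at 450 µM (adjusted p = 7.58e-06). The call at 40 µM was lost without PFNA replicate 3 (0.80, adjusted p = 0.0746) or replicate 4 (0.65, adjusted p = 0.139), and against the 4 DMSO pools of the same extraction batch (0.71, adjusted p = 0.0541). Against those 4 pools the changes at 200 µM (1.50, adjusted p = 1.6e-05) and 450 µM (1.15, adjusted p = 0.000109) were called.

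Against all 16 DMSO pools, ugt2a4 was called at no PFNA concentration. Its changes were −0.51 ± 0.26 at 4 µM, −0.40 ± 0.26 at 20 µM, 0.32 ± 0.24 at 40 µM, 0.58 ± 0.24 at 200 µM (edgeR adjusted p = 0.125) and 0.01 ± 0.25 at 450 µM, the last of which turned below 0 without some single libraries. The 4 DMSO pools of batch 14 held 18.5, 13.9, 16.4 and 15.7 CPM of ugt2a4, where all 16 averaged 19.5. At 200 µM the 4 PFNA pools averaged 29.2 CPM. Of the 15 PFNA changes, 6 were called. At 450 µM the means of all 3 genes lay below those at 200 µM, and the groups did not overlap for ugdh. These differences were not tested, and the share of all probes that separate the same groups was not counted. RNA yield was 176.8 ± 38.2 ng per µl at 450 µM and 186 ± 26.6 at 200 µM, against 250.1 ± 51.1 in the DMSO pools, and the mean RNA integrity number was 9.38, 9.43 and 9.69. The summed level of the 10 liver markers on the panel, 1 of them under 1 CPM, ran from 9874 to 11965 CPM at 40 µM, from 9397 to 11232 at 200 µM and from 7536 to 9578 at 450 µM, against 5143 to 9049 in the DMSO pools, so the 40 and 200 µM groups did not overlap with DMSO. At 450 µM 3 of 9 tested liver markers were higher and 5 lower, where 16.2% of all probes were called higher and 16.9% lower. The summed level of the 6 retina markers, none under 1 CPM, was 7650 to 10054 CPM at 200 µM and 5415 to 6785 at 450 µM, against 9817 to 19144 in DMSO, with 4 of 6 lower at 450 µM. The part of RNA quality and of these markers in the levels was not tested.

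**Figure D3:**
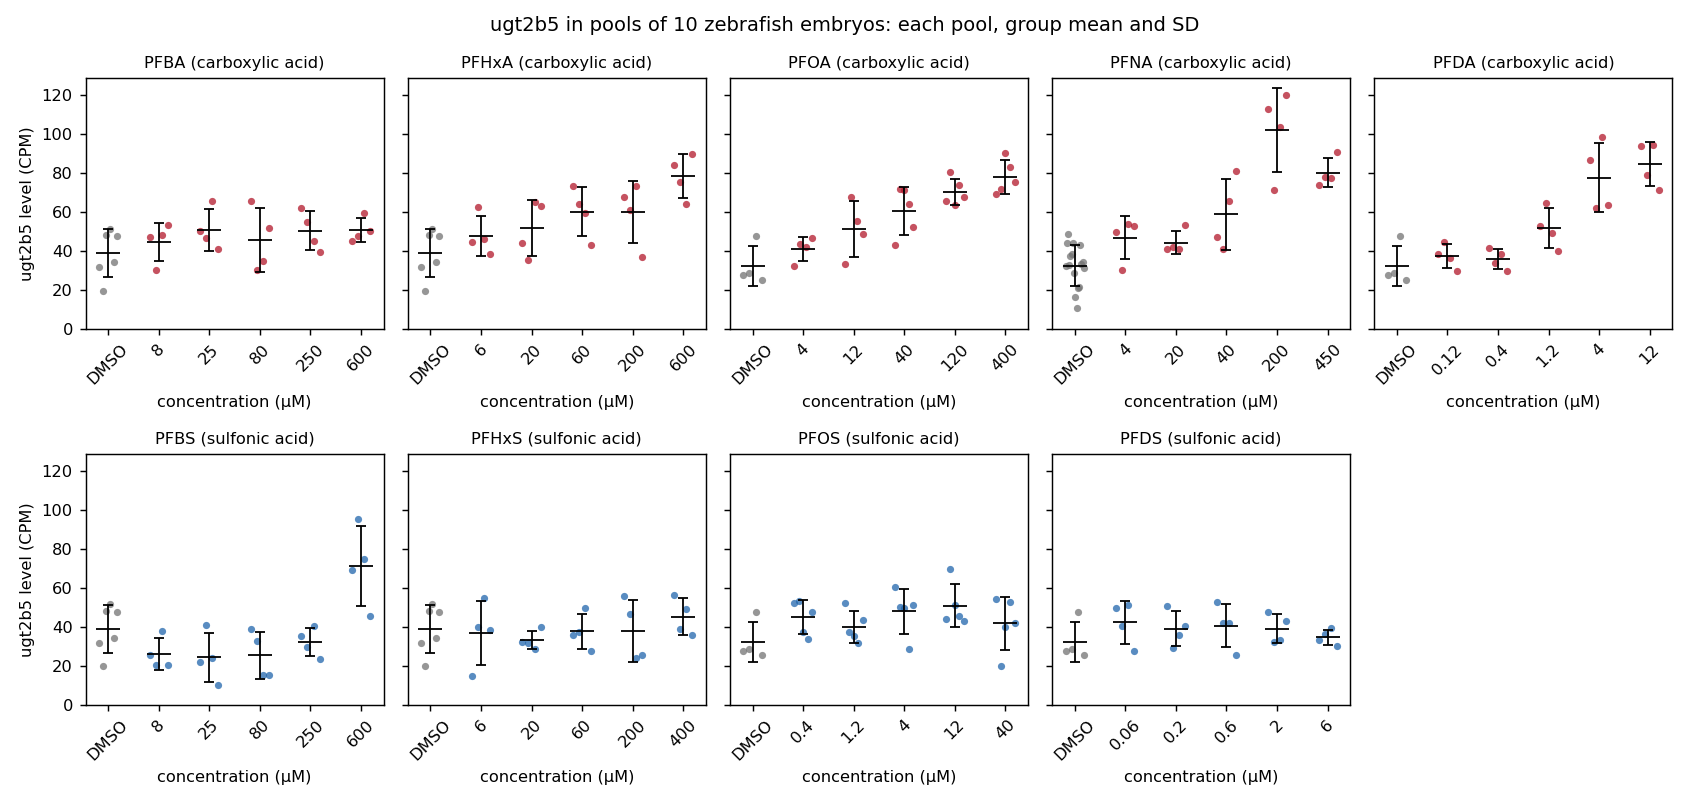
Ugt2b5 level in CPM (vertical axis) by concentration in µM, laid out as for ugdh, with pools as points and bars for mean and SD. PFNA at 200 µM averages 102.04 CPM and PFDA at 12 µM 84.6, while the PFHxS groups average 33.1 to 45.1 CPM.

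In PFHxA, ugdh was called higher at 60, 200 and 600 µM and ugt2b5 at 600 µM. The 6 DMSO pools ran from 115.8 to 137.8 CPM for ugdh with a median of 131, and all 20 PFHxA pools lay above them. The 2 DMSO pools that the labels call outliers, left out here, held 297 and 187 CPM. At 600 µM ugdh stood at 422, 343, 319 and 295 CPM. The changes were 0.66 ± 0.13 at 60 µM (edgeR adjusted p = 0.0103), 0.86 ± 0.13 at 200 µM (adjusted p = 0.000402) and 1.41 ± 0.13 at 600 µM (2.65-fold, adjusted p = 2.04e-08), and 0.40 ± 0.13 and 0.53 ± 0.13 at 6 and 20 µM, not called (adjusted p = 0.1995 and 0.0698). The share of probes called higher was 0.182, 0.146, 0.546, 0.583 and 10.8% from 6 to 600 µM, and at 600 µM a further 9.5% were called lower, or 20.3% in either direction.

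Ugt2b5 stood at 84.3, 75.2, 63.95 and 89.9 CPM at 600 µM PFHxA, above control pools of 19.7 to 51.4 CPM, and rose by 1.01 ± 0.23 (2.01-fold, adjusted p = 0.00243). Ugt2a4 was called at no PFHxA concentration, with changes from −0.51 ± 0.38 at 200 µM to −0.10 ± 0.37 at 600 µM. The latter turned to 0.30 without control_ottawa replicate 2, the DMSO pool at 34.7 CPM, to 0.0963 without PFHxA replicate 4 and to 0.33 with extraction batch as a term, none called. Of the 15 changes, 4 were called. The ugdh call at 60 µM was lost without replicate 1 (0.61, adjusted p = 0.0705). With extraction batch as a term, ugdh at 600 µM was still called (1.20, adjusted p = 0.00307), but ugdh at 60 µM (0.60, adjusted p = 0.623) and 200 µM (0.66, adjusted p = 0.643) and ugt2b5 at 600 µM (0.78, adjusted p = 0.428) were not. Adding the 2 DMSO pools that the labels call outliers, whose ugdh levels were 297 and 187 CPM, ended the calls of ugdh at 60 and 200 µM (0.38, adjusted p = 0.296, and 0.56, adjusted p = 0.124). Against control_mixed these changes were 0.16 (adjusted p = 0.582) and 0.36 (adjusted p = 0.161).

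PFBA, the shortest carboxylic acid, gave no call among its 15 changes with edgeR, where 0, 0.182, 0, 0 and 0.146% of probes were called in either direction from 8 to 600 µM (0.0728% higher at 25 µM). An unadjusted p under 0.05 was found for 2 of the 15, ugdh at 250 and 600 µM. At 600 µM ugdh stood at 201, 154.5, 176 and 170.8 CPM, all above the 6 DMSO pools, with a change of 0.42 ± 0.11 (edgeR adjusted p = 0.106). DESeq2 called this 1 change (0.42, adjusted p = 0.0229).

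Among the sulfonic acids, PFBS gave 1 call in 15. From 8 to 250 µM, where no member was called, 0.0365, 0.0365, 0.0365 and 0.328% of probes were called in either direction. Ugdh at 600 µM stood at 157, 218, 242 and 223 CPM, above all 6 DMSO pools, and rose by 0.68 ± 0.14 (1.60-fold, edgeR adjusted p = 0.0113), at a concentration where 0.437% of probes were called higher. The call was lost without PFBS replicate 2, 3 or 4 (0.61 to 0.67, adjusted p = 0.0536 to 0.102), with total-count scaling (0.63, adjusted p = 0.124) and with the 2 outlier DMSO pools (0.40, adjusted p = 0.614). With extraction batch as a term it was 0.55 (adjusted p = 0.0114). Against both batch A DMSO groups pooled it was 0.45 (adjusted p = 0.203) and against control_mixed 0.17 (adjusted p = 0.702). Ugt2b5 at 600 µM held 69.035, 95.4, 74.97 and 45.5 CPM, and its change of 0.86 ± 0.30 was not called (adjusted p = 0.324).

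PFHxS gave 0 calls in 15 with edgeR, although 0.731, 1.06, 0.768, 7.97 and 21% of probes were called in either direction from 6 to 400 µM. An unadjusted p under 0.05 was found for 4 of the 15, ugdh at 60, 200 and 400 µM and ugt2a4 at 200 µM, and DESeq2 called 2. The ugdh change was 0.36 ± 0.11 at 60 µM (edgeR adjusted p = 0.156) and 0.30 ± 0.11 at 200 µM (adjusted p = 0.0948). At both concentrations all 4 pools lay above all DMSO pools, as did 3 of 4 at 400 µM. At 400 µM ugdh stood at 135.5, 174.5, 141.6 and 184.4 CPM, a change of 0.29 ± 0.11 (adjusted p = 0.0674). This was called without replicate 1 (0.36, adjusted p = 0.0313). At 400 µM ugt2a4 stood at 5.50, 4.65, 16.0 and 14.3 CPM against control pools of 8.06 to 34.7 CPM, a change of −0.61 ± 0.34 (adjusted p = 0.21). It was called lower against both batch A DMSO groups pooled (−1.10, adjusted p = 0.0390) and against control_mixed (−1.64, adjusted p = 0.00105), and was 0.0179 with extraction batch as a term.

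PFOS at 40 µM lowered ugdh. The 5 pools ran from 109.06 to 142.96 CPM with a median of 116.5, all below the 4 DMSO pools, and the change was −0.56 ± 0.14 (1.47-fold lower, edgeR adjusted p = 0.00446), where 14.3% of probes were called lower. It was not called with extraction batch as a term (−0.41, adjusted p = 0.0829), against both batch A DMSO groups pooled (−0.29, adjusted p = 0.103) or against control_ottawa (−0.07, adjusted p = 0.717). The changes of ugt2a4 (−0.84 ± 0.41, adjusted p = 0.133) and ugt2b5 (0.39 ± 0.25, adjusted p = 0.263) were not called. The other PFOS groups gave 0 calls in 12 with edgeR (2 with an unadjusted p under 0.05, ugt2b5 at 4 and 12 µM), where 1.77, 1.92, 4.35 and 6.23% of probes were called in either direction from 0.4 to 12 µM.

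PFDS gave 0 calls in 15 with edgeR, 0 by DESeq2 and 0 with an unadjusted p under 0.05, where 0, 0, 0, 0.0369 and 10.2% of probes were called from 0.06 to 6 µM. At 6 µM, ugdh stood at 146.4, 194, 146.2 and 99.1 CPM, ugt2a4 at 34.4, 32.5, 19.1 and 20.9 CPM and ugt2b5 at 32.98, 36.1, 39.1 and 29.8 CPM. The changes were −0.34 ± 0.18, −0.26 ± 0.35 and 0.09 ± 0.24.

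**Figure D4:**
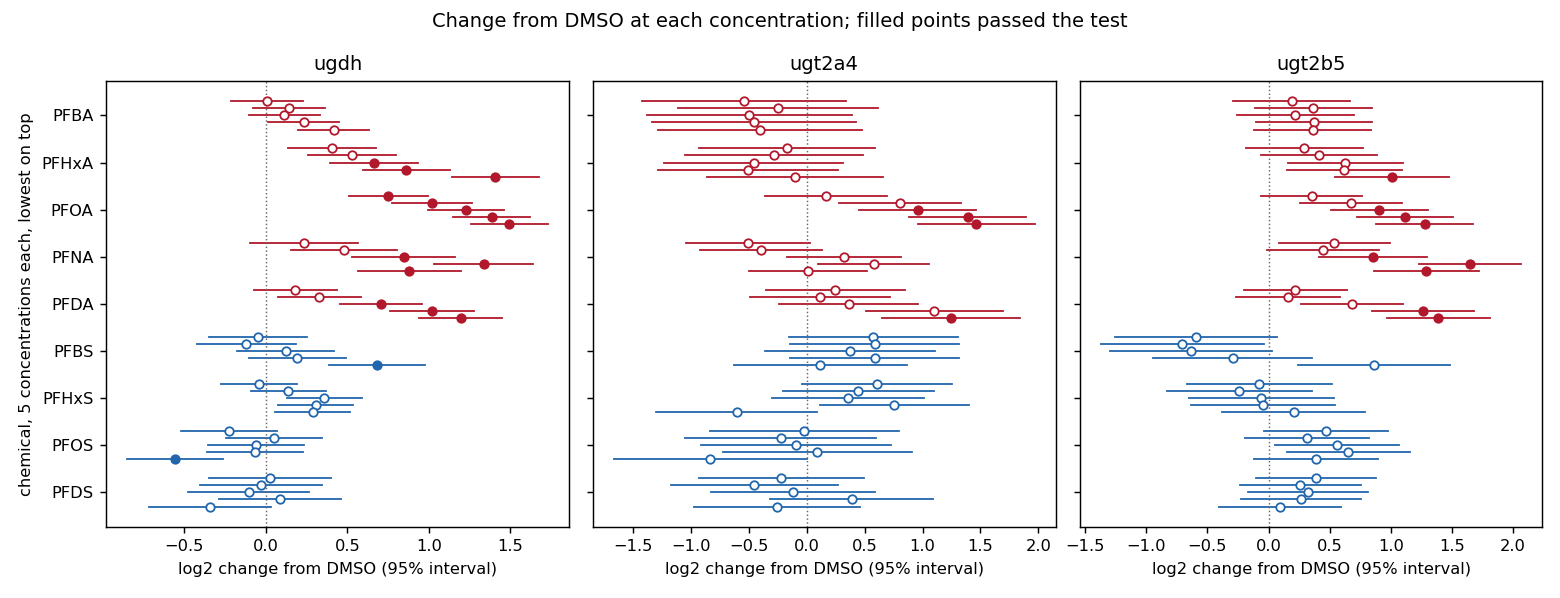
Log2 change from the assigned DMSO group (horizontal axis) with its 95% interval for each chemical and concentration, lowest concentration on top; red marks carboxylic and blue sulfonic acids. Filled points passed the test: 28 lie to the right of 0, and 1, ugdh at 40 µM PFOS (−0.56), to the left.

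A slope over concentration within the exposed pools alone does not use the DMSO pools. Rising slopes were called for 10 of 27 gene and chemical combinations and falling ones for none. The share of probes with a called rise was 0.59% in PFOA, 0.698% in PFDA, 10.6% in PFNA, 0.813% in PFHxA and 0.518% in PFBS. All 3 genes rose with PFOA and with PFDA. The slope of ugdh was 0.37 ± 0.05 log2 per 10-fold concentration in PFOA (23 pools) and 0.54 ± 0.05 in PFDA (20 pools, edgeR adjusted p = 1.3e-07), that of ugt2a4 0.62 ± 0.08 and 0.59 ± 0.10, and that of ugt2b5 0.45 ± 0.07 and 0.69 ± 0.09. In PFNA, ugdh (0.45 ± 0.09) and ugt2b5 (0.54 ± 0.11) rose and ugt2a4 was not called (0.41 ± 0.17, adjusted p = 0.0884). Ugdh also rose in PFHxA (0.47 ± 0.07) and PFBS (0.37 ± 0.09, adjusted p = 0.0383). Without the highest concentration the slopes of ugdh in PFBS (0.20, adjusted p = 0.849) and PFHxA (0.30, adjusted p = 0.605), of ugt2b5 in PFOA (0.51, adjusted p = 0.0551) and of ugt2a4 in PFDA (0.56, adjusted p = 0.118) were not called. The PFBS slope was also not called with total-count scaling (0.39, adjusted p = 0.109).

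Chemicals were compared at each concentration that 2 of them shared, in 32 pairs, as the difference of their changes from DMSO, or directly where they shared DMSO pools. With p adjusted over all probes and pairs, 27 of 96 member differences were called, against 6.88% of all probe differences. Ugdh accounted for 15, ugt2a4 for 7 and ugt2b5 for 5.

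PFOA and PFOS share a chain name and differ in the acid group, and they were measured side by side at 4, 12 and 40 µM. Ugdh was higher in PFOA by 0.82 ± 0.15, 1.11 ± 0.15 and 1.82 ± 0.14 log2 (edgeR adjusted p = 1.25e-05, 1.26e-09 and 1.71e-22), with group means of 434 and 123.8 CPM at 40 µM. Ugt2a4 was higher in PFOA at 40 µM by 1.83 ± 0.32 (adjusted p = 5.3e-06), but the differences at 4 µM (0.26, 95% interval −0.38 to 0.90) and 12 µM (0.74, 0.11 to 1.37, adjusted p = 0.162) were not called. For ugt2b5 none of the 3 was called, with intervals of −0.71 to 0.31, −0.47 to 0.55 and 0.07 to 1.03.

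PFHxA and PFHxS, again an acid and a sulfonate of one chain name, were compared at 6, 20, 60 and 200 µM. Ugdh was higher in PFHxA at 200 µM by 0.54 ± 0.16 (edgeR adjusted p = 0.0161), and at the other 3 concentrations the differences of 0.44, 0.38 and 0.29 were not called. Ugt2a4 went the other way and was lower in PFHxA at 200 µM by −1.29 ± 0.37 (adjusted p = 0.0153), with means of 10.8 and 26.4 CPM. Both calls were lost in a smaller fit of only the 2 groups at 200 µM and their DMSO pools (0.55, adjusted p = 0.0619, and −1.27, adjusted p = 0.0752). Ugt2b5 differences of 0.35 to 0.67 were not called.

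For PFBA and PFBS, compared at 5 concentrations, ugdh differed by −0.27 to 0.27 and was never called, with an interval of −0.57 to 0.04 at 600 µM. Ugt2b5 was higher in PFBA at 25 µM (1.08 ± 0.28, edgeR adjusted p = 0.00585) and 80 µM (0.86 ± 0.28, adjusted p = 0.0413), and ugt2a4 was lower in PFBA at 8 µM (−1.12 ± 0.37, adjusted p = 0.0456). In smaller fits of only the 2 groups at that concentration and their DMSO pools, none of the 3 was called (adjusted p = 0.0789, 0.199 and 0.195). Neither ugt2b5 nor ugt2a4 was called against DMSO at these concentrations in either chemical. PFDA and PFDS shared no concentration.

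**Figure D5:**
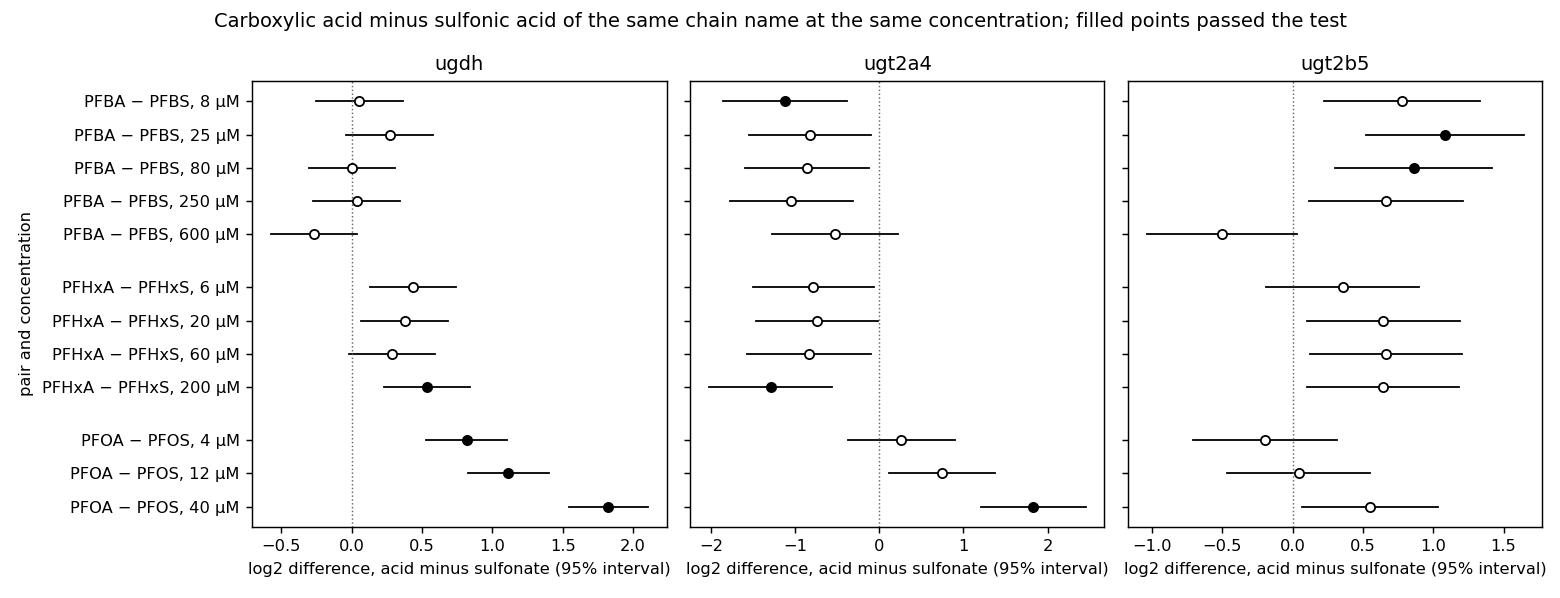
Log2 difference, carboxylic acid minus sulfonic acid (horizontal axis) with its 95% interval, for 3 pairs of the same chain name at each shared concentration; filled points passed the test. The ugdh differences of PFOA over PFOS are 0.82, 1.11 and 1.82 at 4, 12 and 40 µM, and those of PFBA over PFBS lie between −0.27 and 0.27.

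Carboxylic acids that differ in chain length were compared in the same way. At 600 µM, ugdh was lower in PFBA than in PFHxA (−0.99 ± 0.16, edgeR adjusted p = 4.5e-07). At 4 µM, ugdh and ugt2a4 were higher in PFDA than in PFNA (0.79 ± 0.20, adjusted p = 0.00374, and 1.62 ± 0.45, adjusted p = 0.0113), although the 2 chemicals have different DMSO pools and batches. The ugdh difference was not called in a smaller fit of only the 2 groups at 4 µM and their DMSO pools (0.80, adjusted p = 0.0800). That of ugt2a4 was not called with p adjusted within the pair (adjusted p = 0.0638). PFOA and PFDA, which share DMSO pools, differed in ugt2b5 at 4 µM (−0.92 ± 0.27, adjusted p = 0.0195), a call lost with p adjusted within the pair (adjusted p = 0.0690) or total-count scaling (−0.78, adjusted p = 0.0706). They were not called different in ugdh, with an interval of −0.58 to 0.02 at 4 µM and −0.47 to 0.14 at 12 µM. At 200 µM ugt2b5 was lower in PFHxA than in PFNA (−1.04 ± 0.32, adjusted p = 0.0302). In a smaller fit of only these 2 groups and their DMSO pools the adjusted p was 0.132. PFOA and PFNA were not called different in any member at 4 or 40 µM, with ugdh intervals of 0.12 to 0.91 and 0.02 to 0.78.

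The 48 groups (45 exposed and 3 DMSO) can be put in order of mean level. This order crosses sets of different fish origin and batch, whose DMSO groups themselves differ, so a rank is not a change from DMSO. Ugdh was highest in PFOA at 400, 120 and 40 µM and PFDA at 12 µM, and lowest in control_pfna, PFBS at 25 µM (120 CPM) and PFOS at 40 µM. Ugt2a4 was highest in PFOA at 400 and 120 µM and lowest in PFHxS at 400 µM (10.1 CPM) and PFBA at 8 µM (10.7 CPM). Ugt2b5 was highest in PFNA at 200 µM and PFDA at 12 µM and lowest in PFBS at 25 and 80 µM (24.2 and 25.4 CPM). Of 47 neighbouring pairs in each order, 1 for ugdh (PFDA at 12 and 4 µM) and 0 for both transferase genes differed by more than the larger SD of the pair.

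Correlations between members were computed within each chemical, and differences between chemicals were not tested. The Pearson correlation of ugdh with ugt2b5, as deviations of log2 CPM from each chemical's mean, was 0.57 over all exposed pools, 0.88 in PFDA, 0.86 in PFNA, 0.70 in PFOA, 0.62 in PFBS, 0.48 in PFHxA, 0.45 in PFBA, 0.36 in PFDS, 0.16 in PFOS and 0.07 in PFHxS (20 to 25 pools each). That of ugdh with ugt2a4 was 0.86 in PFOA, 0.82 in PFDA, 0.72 in PFNA, 0.58 in PFDS, 0.36 in PFOS, 0.32 in PFHxA, 0.22 in PFBA, −0.08 in PFBS and −0.22 in PFHxS. That of ugt2a4 with ugt2b5 was 0.74 in PFOA, 0.72 in PFDA, 0.61 in PFNA, 0.35 in PFDS, 0.31 in PFBA, 0.15 in PFOS, −0.13 in PFHxA, −0.29 in PFHxS and −0.32 in PFBS. As deviations from each group's mean over all exposed pools the 3 correlations were 0.14, 0.32 and 0.02. Pools share concentrations, plates and library composition, so these values are descriptions.

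Among 2078 probes with a mean of 10 CPM or more, ugt1a2, a UGT of family 1, had the pattern most like that of ugdh over the exposed pools (r = 0.71). It was followed by ugt2b5 (0.57), the cytochrome P450 gene cyp2y3 (0.57) and the cytochrome b5 reductase gene cyb5r2 (0.54). As deviations from each group's mean the values were lower, at 0.43 for ugt1a2, 0.14 for ugt2b5, −0.03 for cyp2y3 and 0.29 for cyb5r2. For ugt2b5 the nearest were ugdh (0.57), cyp2y3 (0.49), the liver glycogen phosphorylase gene pygl (0.46), ugt1a2 (0.45) and the fatty acid elongase gene elovl2 (0.42). Within groups these ran from 0.135 (ugt1a2) to 0.217 (pygl). For ugt2a4 they were txndc5, a protein disulfide isomerase (0.43), the glutathione peroxidase gene gpx1a (0.42), ugdh (0.42), the aminopeptidase N gene anpepb (0.41) and mdm2, a ubiquitin ligase that acts on p53 (0.40), while ugt2b5 stood at 0.20. Within groups the 5 nearest ran from 0.17 (anpepb) to 0.36 (txndc5).

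The panel holds 4 other UGT genes, ugt1a2, ugt1b1, ugt1b4 and ugt1b5. Ugt1a2 was called higher in 13 contrasts, at 12 to 400 µM PFOA, 1.2 to 12 µM PFDA, 60 to 600 µM PFHxA, 40 and 200 µM PFNA and 600 µM PFBS. Its level rose from 284 ± 25.6 CPM in control_mixed to 532 ± 40.2 at 400 µM PFOA (n = 5, log2 change 0.92 ± 0.11, edgeR adjusted p = 2.47e-06) and 549.8 ± 41.7 at 12 µM PFDA (n = 4, 0.96 ± 0.11, adjusted p = 7.24e-06). At 6 µM PFDS it was lower (203 ± 11.3 CPM, −0.48 ± 0.11, adjusted p = 0.0046). Ugt1b5, at low levels, was higher at 600 µM PFHxA (6.64 against 2.62 CPM) and lower at 450 µM PFNA (2.67 against 6.59 CPM). Ugt1b1 and ugt1b4 were not called.

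Supply of UDP-glucose and related sugars was covered by 10 other genes. At 400 µM PFOA and 12 µM PFDA, 0 of 10 were called (edgeR), with medians of 0.09 and 0.17 log2 against −0.00 and −0.01 over all probes. At 600 µM PFHxA 4 of 10 were higher (median 0.35 against −0.04), where 10.8% of all probes were called higher. Among the 4 were pygl, which frees glucose units from glycogen (0.72 ± 0.11, edgeR adjusted p = 6.35e-05), gfpt1, the entry step of the hexosamine pathway (0.82 ± 0.15, adjusted p = 0.000399), and the phosphoglucomutase gene pgm1 (0.70 ± 0.21, adjusted p = 0.0171). At 450 µM PFNA 4 were higher and 1 lower (median −0.01 against −0.09), where 16.2% of all probes were called higher and 16.9% lower. Slc2a2, a glucose transporter, was lower (−1.05 ± 0.16, edgeR adjusted p = 2.15e-06). Of the 4 genes of glycosaminoglycan synthesis, a pathway that UDP-glucuronic acid feeds, 0 were called at the highest PFOA, PFDA and PFHxA concentrations. At 450 µM PFNA 2 were lower, hs2st1a (−0.47 ± 0.14) and b3galt6 (−0.61 ± 0.19), where 16.9% of all probes were called lower.

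For the lists below, the share of all probes called higher was 1.28% at 400 µM PFOA, 0.401% at 12 µM PFDA and 10.8% at 600 µM PFHxA. At 400 µM PFOA 1.25% were called lower. Of 14 genes of sulfation, glutathione transfer and other conjugation, 0 were higher and 1 lower at 400 µM PFOA, the sulfotransferase sult1st3 (−0.62 ± 0.15, edgeR adjusted p = 0.0159), and 1 was higher at 12 µM PFDA, the glutathione transferase gsta.2 (1.52 ± 0.35, adjusted p = 0.0409). At 600 µM PFHxA 3 were higher, gstp1 (1.12 ± 0.14), gsta.2 (1.86 ± 0.29) and gstk1 (0.37 ± 0.11). Targets of the pregnane X receptor, a xenobiotic sensor, and cytochromes of families 2 and 3 were tested as 15 genes in PFOA, with 2 higher at 400 µM, cyp2y3 (1.00 ± 0.10, adjusted p = 3.6e-08) and abcb5 (0.47 ± 0.11). In PFDA 1 of 16 was higher at 12 µM, cyp2y3 (0.89 ± 0.12, adjusted p = 6.71e-05). The aryl hydrocarbon receptor targets, 9 tested in PFOA and 8 in PFDA, gave 0 calls at these concentrations. Of 16 targets of NRF2, a regulator of the antioxidant response, 3 were higher at 400 µM PFOA, gsr (1.22 ± 0.24), prdx1 (1.57 ± 0.33) and osgn1 (0.68 ± 0.15), and 0 at 12 µM PFDA. Targets of the fatty acid sensing PPAR receptors were higher for 4 of 26 genes at 400 µM PFOA, with hmgcs1 (1.14 ± 0.22), cpt1b (0.68 ± 0.14) and cpt2 (0.60 ± 0.15) among them, and for 0 of 25 at 12 µM PFDA.

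In the chemicals with broad responses these lists held more calls. Over all probes, 10.8% were called higher and 9.5% lower at 600 µM PFHxA, and 16.2% higher and 16.9% lower at 450 µM PFNA. At 600 µM PFHxA, 4 of 16 NRF2 targets were higher, with gstp1 and prdx1 (1.43 ± 0.24) having the smallest p, and 1 was lower, the glutathione peroxidase gene gpx1a (−3.60 ± 0.81). PPAR targets were higher for 5 of 27 and lower for 1, with cpt2 (1.37 ± 0.19) and decr1 (0.61 ± 0.11) higher and fabp1a (−2.12 ± 0.50) lower. Of 15 pregnane X receptor list genes 2 were higher and 2 lower, among them cyp2y3 (0.84 ± 0.10), nr1i2 (−0.38 ± 0.10) and cyp2aa2 (−1.43 ± 0.41), and of 9 aryl hydrocarbon receptor targets 1 was lower, cyp1a (−0.54 ± 0.19). At 450 µM PFNA, 9 of 17 NRF2 targets were higher and 0 lower, 11 of 26 PPAR targets higher and 4 lower, 6 of 15 pregnane X receptor list genes higher and 4 lower, 5 of 14 conjugation genes higher and 3 lower, and 1 of 10 aryl hydrocarbon receptor targets higher. Organic anion transporters gave 0 calls of 14 at 400 µM PFOA and at 12 µM PFDA, 2 lower of 14 at 600 µM PFHxA and 1 higher of 13 at 450 µM PFNA.

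Markers of liver, intestine, retina, kidney and muscle were measured beside the members. Their counts of calls stand against the shares of all probes given above for the same concentrations. The 5 genes summed as intestine markers (cdx1b, alpi.1, alpi.2, anpepb and aqp3a) were above 1 CPM in every group. The design named fabp2, vil1, cdx1b, apoa4a, mttp and slc15a1b for intestine, of which only cdx1b is in this sum. These 5 were chosen with earlier results of these data known, and anpepb is also among the probes nearest to ugt2a4. Their sum is therefore a description only. Their summed level ran from 2063 to 2898 CPM in control_mixed, from 3172 to 4560 at 400 µM PFOA and from 2580 to 2924 at 12 µM PFDA. In PFOA it ran from 1572 to 3873 CPM at 4 µM, 2909 to 3498 at 12 µM, 3065 to 4007 at 40 µM and 3688 to 4117 at 120 µM. From 12 µM PFOA upward these sums did not overlap with the 4 pools of control_mixed. However, the 2 DMSO pools labelled outliers held 2732 and 4028 CPM, within the range of the PFOA pools. At 400 µM PFOA 1 of 5 was called higher, anpepb (1.09 ± 0.24, adjusted p = 0.00836). The summed level of the 10 liver markers, 1 of them under 1 CPM, ran from 7919 to 10233 CPM in control_mixed, 7300 to 11196 at 400 µM PFOA and 7740 to 9980 at 12 µM PFDA. At 600 µM PFHxA the liver sum ran from 10817 to 12594 CPM against 7090 to 9660 in control_ottawa, with 4 of 9 tested markers higher, among them fgb, a fibrinogen chain gene (0.89 ± 0.17). The summed retina markers ran from 5839 to 8484 CPM at 400 µM PFOA against 7580 to 11598 in control_mixed, with 2 of 6 lower, from 8526 to 9892 at 12 µM PFDA with 0 called, and from 8244 to 10365 at 600 µM PFHxA against 10090 to 12662 in control_ottawa, with 2 of 6 lower. Neither kidney marker was called at the highest PFOA, PFDA, PFHxA or PFNA concentration, and of both muscle markers 1 was higher at 12 µM PFDA and 1 at 450 µM PFNA. The part of these markers in the changes of the members was not tested.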

How the data were processed

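The authors deposited raw counts per probe and library (TempO-Seq S1500+ panel) in 1 table of 228 libraries, of which 216 are embryo pools. Per the submitters' processing notes, the tools were STAR 2.7.10b, fastp 0.23.2 and R 4.4.1. No genome build or counting step is stated in the labels, and no coordinates are given. In a RefSeq annotation used for neighbours only, ugt2a4 overlaps ugt2a1, ugt2a2 and ugt2a3, so its reads may be shared with them; ugdh and ugt2b5 overlap no gene.

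Tests used edgeR 4.0.16 under R 4.3.3 (filterByExpr, TMM, glmQLFit, glmQLFTest, two-sided), 1 fit per chemical with its DMSO pools, and 1 fit of all groups for pairs and DMSO groups. DESeq2 1.42.0 was an alternative, with other scalings, no low-count filter, batch terms, other DMSO groups and leave-one-out. The steps were tested on simulated data. Likeness used log2(CPM + 1). The 2 DMSO pools labelled outliers entered alternatives only, and reference RNA and water no test. Between pools of a group the chi-square of counts per degree of freedom was 5.49 or more over 444 pairs, so none were duplicates. Counts set the precision, and SEs cover spread between pools. The members and lists were chosen with earlier results of these data known. Besides the members, the text names the 5 probes most like each of them (1 is not reported here) and up to 3 called genes per list at a chemical's highest concentration.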

Additional observations from a re-analysis of the deposited data

Results flagged for a closer look

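In groups of 4 to 10 pools, 47 per gene, 10 sets of levels over the 3 genes held a pool far from the others, where chance, at about 1 in 20, gives about 7. Of these, 7 were ugt2a4: control_mixed replicate 4 (62.7 CPM, the others 17.1 to 24.9), control_ottawa replicate 2 (34.7 CPM, the others 8.06 to 17.9), PFDA 12 µM replicate 3 (112.2 CPM, the others 60.4 to 66.4), PFOS 12 µM replicate 1 (47.7 CPM) and PFDS 0.2 µM replicate 1 (26.5 CPM) were high, and PFOA 40 µM replicate 5 (43.8 CPM) and PFOS 0.4 µM replicate 1 (19.4 CPM) were low. For ugt2b5, control_mixed replicate 3 (47.6 CPM) and PFNA 20 µM replicate 4 (53.1 CPM) were high, and for ugdh, PFOA 4 µM replicate 1 (337 CPM).

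The changes of 2 chemicals at the same concentration differed in 27 tests, as log2 differences. Differences with PFNA, PFHxA minus PFDS and PFHxS minus PFOA are between chemicals with different DMSO pools, of another fish origin or processing batch. For ugdh, PFOS minus PFDA was −0.57 at 0.4 µM, −0.66 at 1.2 µM, −1.095 at 4 µM and −1.28 at 12 µM, and PFOA minus PFOS was 0.82, 1.11 and 1.82 at 4, 12 and 40 µM. The other ugdh differences were 0.79 for PFDA minus PFNA at 4 µM, 0.73 for PFHxA minus PFDS at 6 µM (different DMSO pools; 0.65, adjusted p = 0.0771 with total-count scaling), −1.43 for PFOS minus PFNA at 40 µM, 0.54 for PFHxA minus PFHxS and −1.01 for PFHxS minus PFNA at 200 µM, −1.22 for PFHxS minus PFOA at 400 µM, and −0.99 for PFBA minus PFHxA and −0.73 for PFBS minus PFHxA at 600 µM. For ugt2a4, PFOS minus PFDA was −1.21 at 4 µM and −1.17 at 12 µM, PFDA minus PFNA 1.62 at 4 µM, PFBA minus PFBS −1.12 at 8 µM, PFOA minus PFOS 1.83 at 40 µM, PFHxA minus PFHxS −1.29 at 200 µM and PFHxS minus PFOA −2.08 at 400 µM. For ugt2b5, PFOA minus PFDA was −0.92 at 4 µM, PFBA minus PFBS 1.08 at 25 µM and 0.86 at 80 µM, and PFHxA minus PFNA −1.04 and PFHxS minus PFNA −1.68 at 200 µM.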

How the results depend on the processing

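Of 572 alternative values for the 29 called changes, 526 kept direction and call and none turned. Counts for PFOA (11; 9 to 13), PFNA (6; 5 to 6), slopes (10; 7 to 13) and pairs (27; 22 to 32) stayed within 1.5 times under every alternative run. With the other batch A group, calls became 4 for PFBA, 3 for PFBS, 8 for PFHxA, 2 for PFHxS, 3 for PFOS, 12 for PFDA and 3 for PFDS; with both groups pooled, 0 for PFBS, 1 for PFHxS and 0 for PFOS; with the outlier pools, 0 for PFBS and 2 for PFHxA. With extraction batch as a term, PFHxA had 1, PFOS 0 and PFDA 3. Total-count scaling gave 0 for PFBS, and DESeq2 gave 1 for PFBA and 2 for PFHxS. Among DMSO groups the count of 4 was 1 with DMSO pools alone. The cause of these moves was not tested.

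Leaving out 1 library gave 0 for PFBA and PFDS, 0 to 1 for PFBS, 3 to 5 for PFHxA, 0 to 2 for PFHxS (1 without control_ottawa replicate 2 or PFHxS 400 µM replicate 1, 2 without replicate 4), 9 to 12 for PFOA, 1 to 2 for PFOS (2 without control_mixed replicate 3), 4 to 7 for PFDA, 5 to 6 for PFNA and 1 to 4 for DMSO groups.

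Changes that turned were all uncalled. With the other DMSO group these were ugdh at 600 µM PFBA (−0.0927), 400 µM PFHxS (−0.23) and 6 µM PFDS (0.17), ugt2a4 at 600 µM PFBS (−0.92), 40 µM PFOS (0.17) and 6 µM PFDS (0.77), and ugt2b5 at 6 µM PFDS (−0.19). With pooled groups they were ugt2a4 at 600 µM PFBS (−0.38) and 6 µM PFDS (0.28) and ugt2b5 at 6 µM PFDS (−0.0785), and with the outlier pools ugt2a4 at 600 µM PFBS (−0.27). With extraction batch they were ugt2a4 at 600 µM PFHxA (0.33) and 400 µM PFHxS (0.0179). Without 1 library, ugt2a4 ranged from −0.0142 to 0.50 at 600 µM PFBS, −0.37 to 0.30 at 600 µM PFHxA, −0.47 to 0.32 at 6 µM PFDS and −0.12 to 0.17 at 450 µM PFNA, and ugt2b5 from −0.00724 to 0.35 at 6 µM PFDS.

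Replicate numbers were not taken to pair the pools: same-numbered pools correlated above 0.1 in 6 of 60 (PFBS) to 28 of 70 pairs (PFOS), and between 2 of 24 (PFBS) and 19 of 29 pools (PFOS) correlated best with their own number. In the 5 PFOS groups a number marks 1 extraction batch, which control_mixed replicates 1 and 2 share and 3 and 4 do not; with the block ugdh at 40 µM PFOS was −0.53 (adjusted p = 0.00248). With the replicate block, calls were 12 for PFOA, 5 for PFDA and 5 for PFNA, 11 slopes and 32 pair differences, and the other counts stayed as they were. Calls lost with it were ugt2b5 at 40 µM PFNA (0.52, adjusted p = 0.0510), ugt2a4 at 12 µM PFDA (1.30, adjusted p = 0.0567) and ugt2b5 in PFHxA minus PFNA at 200 µM (−0.79, adjusted p = 0.127).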

Other observations

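Levels in the 8 reference RNA libraries, which entered no comparison, differed between the 2 reference RNAs (CPM by total counts). Ugt2a4 stood at 47.9 to 62.2 CPM in the first and 3.97 to 8.02 CPM in the second, ugdh at 76.2 to 101.3 and 49.8 to 61.3 CPM, and ugt2b5 at 4.76 to 6.31 and 1.90 to 3.72 CPM.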
